A study of Homo sapiens with 32 samples.

Results

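The 36 aminoacyl-tRNA synthetase mRNAs described here were the rows of the deposited gene table whose symbols were on a fixed list of synthetase names, out of 29744 genes in all. The table uses older symbols, so glycyl-tRNA synthetase is GARS and not GARS1. Of the 36, 20 encode enzymes of the cytosol and 16, with symbols ending in RS2, encode enzymes of the mitochondrion, and all 36 passed the filter on low counts in both cell lines. The study sequenced polyadenylated RNA from LNCaP and C4-2B, established human prostate cancer cell lines, C4-2B being a derivative of LNCaP. Each line gave 4 groups of 4 libraries. They were cells with siRNA against MOCOS (the molybdenum cofactor sulfurase) and thapsigargin (siMOCOS TG), control siRNA and thapsigargin (siCTRL TG), siRNA against MOCOS alone (siMOCOS) and control siRNA alone (siCTRL). The cells without thapsigargin served as vehicle-treated controls, and its dose and time are not stated in the sources used here. Each siMOCOS group pools 2 libraries of each of 2 siRNAs, which could not be tied to table columns, and each line is a single tumour-derived line.

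Each aminoacyl-tRNA synthetase joins 1 amino acid to its tRNA, the step that fixes the genetic code. The cytosolic enzymes charge tRNAs for the proteins made from nuclear genes, and a separate set, also encoded in the nucleus and imported, charges the tRNAs for the few proteins encoded by mitochondrial DNA. GARS and KARS serve both compartments, and mitochondria make glutaminyl-tRNA indirectly, from a glutamate-charged precursor. Thapsigargin (TG) blocks the SERCA pumps that fill the endoplasmic reticulum with calcium, and the resulting ER stress activates the kinase PERK and the transcription factor ATF4. ATF4 is known to bind C/EBP-ATF response elements near many amino acid metabolism and synthetase genes.

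The sequence that such elements share was looked for in the members' promoters, because ATF4-bound elements are known at several cytosolic synthetase genes. The search covered 250 bases before to 50 bases after the gene start in the RefSeq promoter table (GRCh38.p14), on both strands, for TGATG followed by any base and AA. A promoter was listed for 30 of the 36 members, and DARS, LARS, VARS, YARS, AARS2 and VARS2 had no entry there. Some members have more than 1 listed promoter. The 8 letters were present in 7 of 21 cytosolic promoters (33.3%), against 1 of 18 mitochondrial ones (5.56%), 598 of 22198 promoters of protein-coding genes (2.69%) and 1270 of 35116 promoters of all kinds (3.62%). By gene, 7 of 16 cytosolic members and 1 of 14 mitochondrial members had it in a listed promoter, and the other listed promoters of CARS, GARS and TARS had no match. The 7 cytosolic members were all among the 10 with a listed promoter that rose under TG in both lines, and 0 of the other 6 had it. A match of letters is a description of the window and not a binding site. The ER stress element, CCAAT and CCACG at a distance of 9 bases, was found in 0 of the 21 cytosolic and 0 of the 18 mitochondrial promoters and in 27 of all 35116 (0.0769%). The matches are shown 5′ to 3′ on the strand of the gene with 9 bases on either side where the capitals mark the 8 matched letters.
AARS, chr16:70289677-70289702, minus strand: ttctcgcagTTGCATCAgccaagtta
CARS, chr11:3057409-3057434, minus strand: gggcggcggTTGCATCAgattctagg
GARS, chr7:30594836-30594861, plus strand: acgcggcgaTTTCATCAtgctccgag
IARS, chr9:92293694-92293719, minus strand: ttcagcgcgTTGCATCAcctccgtgc
MARS, chr12:57488055-57488080, plus strand: cggttccggTTGCATCAgcgagggat
NARS, chr18:57621806-57621831, minus strand: tacgctctcTGATGCAAcgccggaat
TARS, chr5:33440958-33440983, plus strand: gcctttcgaTTGCATCAgctggtcca
YARS2, chr12:32756078-32756103, minus strand: ccacactgcTGATGGAAaaattaagt
In CARS, TARS and MARS the first matched base lay within 4 bases of the listed start, and in IARS it lay 13 bases before it. The match of GARS lay 33 bases before the start and that of AARS 187 bases before it, while that of NARS began 15 bases after it. The YARS2 match, 197 bases before the start, was the only one in a mitochondrial promoter.

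For a longer view, 280 bases of promoter, 250 before and 30 after the listed start, are given for the 3 cytosolic members that rose most with TG and for MARS2, the mitochondrial member that fell most. Capitals again mark the match, which the WARS and MARS2 windows lacked.
GARS, chr7:30594628-30594907, plus strand: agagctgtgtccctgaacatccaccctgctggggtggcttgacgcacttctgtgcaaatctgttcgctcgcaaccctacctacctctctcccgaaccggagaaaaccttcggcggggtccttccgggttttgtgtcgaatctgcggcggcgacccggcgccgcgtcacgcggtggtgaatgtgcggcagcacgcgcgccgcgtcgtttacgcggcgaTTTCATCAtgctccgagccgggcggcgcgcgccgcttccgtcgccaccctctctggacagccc
CARS, chr11:3057394-3057673, minus strand: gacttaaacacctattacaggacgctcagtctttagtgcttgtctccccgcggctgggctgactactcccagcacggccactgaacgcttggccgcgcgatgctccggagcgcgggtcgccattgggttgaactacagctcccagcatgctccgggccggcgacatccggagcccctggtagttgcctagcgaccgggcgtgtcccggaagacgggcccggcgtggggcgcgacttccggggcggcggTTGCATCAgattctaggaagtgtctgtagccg
WARS, chr14:100376298-100376577, minus strand: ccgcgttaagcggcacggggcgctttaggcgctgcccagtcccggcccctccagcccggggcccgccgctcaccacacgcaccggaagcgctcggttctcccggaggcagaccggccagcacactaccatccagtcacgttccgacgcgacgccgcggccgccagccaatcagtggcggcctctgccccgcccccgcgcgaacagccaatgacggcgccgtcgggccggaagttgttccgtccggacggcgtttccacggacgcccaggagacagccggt
MARS2, chr2:197705119-197705398, plus strand: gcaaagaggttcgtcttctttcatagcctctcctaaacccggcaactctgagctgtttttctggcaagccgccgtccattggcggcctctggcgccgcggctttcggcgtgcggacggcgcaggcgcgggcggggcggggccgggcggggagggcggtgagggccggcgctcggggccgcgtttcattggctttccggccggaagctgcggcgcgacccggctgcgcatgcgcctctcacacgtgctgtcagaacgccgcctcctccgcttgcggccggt
The GARS and CARS windows hold the match in different places, upstream of the start in GARS and across the start in CARS. WARS rose with TG in both lines with no match in its window.

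Library totals ranged from 7510000 to 27100000 estimated counts (rounded). MOCOS itself had 9.76 to 19.1 CPM in LNCaP siMOCOS TG libraries and 90.8 to 101 CPM in LNCaP siCTRL TG ones, and without TG 3.46 to 4.13 CPM in siMOCOS and 23.7 to 25.2 CPM in siCTRL libraries. In C4-2B it had 10.5 to 18.7 CPM in siMOCOS TG, 85.4 to 91.5 CPM in siCTRL TG, 2.3 to 4.62 CPM in siMOCOS and 29.5 to 33.6 CPM in siCTRL libraries, so the libraries carry the knockdown their labels name. All 10 luminal prostate markers examined were detected, and summed basal markers stayed at or below 3.7 CPM, stromal and endothelial ones at 4.08 to 25.6 CPM and immune and blood ones at 1.16 to 9.41 CPM. The luminal sum moved with TG, at 2540 to 2810 CPM in LNCaP siCTRL TG libraries against 5570 to 6060 CPM in LNCaP siCTRL ones, and at 1670 to 1820 CPM in C4-2B siCTRL TG libraries against 2750 to 2920 CPM in C4-2B siCTRL ones. With siMOCOS alone it was 5600 to 7350 CPM in LNCaP siMOCOS libraries against 5570 to 6060 CPM in LNCaP siCTRL ones, and 3510 to 4620 CPM in C4-2B siMOCOS libraries against 2750 to 2920 CPM in C4-2B siCTRL ones. The stromal and endothelial sum was 12 to 16.1 CPM in LNCaP siCTRL TG libraries against 5.87 to 7.19 CPM in LNCaP siCTRL ones, and 12.4 to 20.1 CPM in C4-2B siCTRL TG libraries against 4.08 to 8.58 CPM in C4-2B siCTRL ones. The basal sum was 0.818 to 0.973 CPM in LNCaP siCTRL TG libraries against 0.112 to 0.648 CPM in LNCaP siCTRL ones, and 1.06 to 1.25 CPM in C4-2B siCTRL TG libraries against 0 to 0.0555 CPM in C4-2B siCTRL ones. The part of these markers in the results below was not tested, and in bulk RNA fewer cells of a type and less RNA per cell cannot be told apart. In 6 libraries, the deviation from the group mean followed transcript length with a correlation beyond 0.25 in size. They were C4-2B siCTRL 2 and 4, C4-2B siCTRL TG 2 and 3, and LNCaP siCTRL TG 2 and 4. Without them, only replicates 1 and 3 of C4-2B siCTRL and 1 and 4 of C4-2B siCTRL TG remain. In LNCaP siCTRL TG only 1 and 3 remain, so fits without these libraries rest on fewer libraries per group. Deviations also followed GC content, with correlations from -0.567 (siCTRL 1) to 0.451 (siCTRL 4) in C4-2B. In LNCaP these ran from -0.393 (siMOCOS 1) to 0.396 (siCTRL TG 2). The 6 libraries were chosen by length alone, so leaving them out does not remove the GC trends. Fold changes are on the log2 scale with standard errors from edgeR's quasi-likelihood fit of each line, and a gene is called changed at a Benjamini-Hochberg adjusted p under 0.05 over all genes tested in that line.

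Without TG, the cytosolic synthetase mRNAs were far more abundant per length than the mitochondrial ones. In LNCaP siCTRL cells the 20 cytosolic members had a median level of 108 CPM per kb, with AARS highest at 294 and CARS lowest at 18.3 CPM per kb. The 16 mitochondrial members had a median of 9.75 CPM per kb there, between 4.39 for PARS2 and 55.1 for IARS2. In C4-2B siCTRL cells the cytosolic median was 116 CPM per kb, between 25.4 for FARSB and 421 for TARS, and the mitochondrial median was 10.3 CPM per kb, between 4.78 for PARS2 and 52.1 for IARS2. The ranges overlapped, since IARS2, LARS2, TARS2 and EARS2 were above the lowest cytosolic member in both lines. The levels differed by more than compartment alone, because the 11 cytosolic members that rose with TG in both lines had a median of 130 CPM per kb in LNCaP siCTRL cells and the other 9 had 38.9 CPM per kb. In C4-2B these medians were 148 and 70.3 CPM per kb, and median transcript lengths were 2523 and 2361 bases with GC contents of 52% and 48.7%.

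Under TG many cytosolic synthetase mRNAs rose and several mitochondrial ones fell. In siCTRL cells, 11 of 20 cytosolic mRNAs rose in LNCaP and the same 11 rose in C4-2B, namely AARS, CARS, EPRS, GARS, IARS, MARS, NARS, SARS, TARS, WARS and YARS. No mitochondrial mRNA was called higher in either line by edgeR, while 9 of 16 were called lower in LNCaP and 5 of 16 in C4-2B. The 13 that fell in LNCaP and the 7 that fell in C4-2B shared 6, the cytosolic FARSB and QARS and the mitochondrial IARS2, LARS2, MARS2 and TARS2. For comparison, 24.6% of the 13806 genes tested in LNCaP were called higher and 25.1% lower, and in C4-2B 21.2% of 14127 were called higher and 19.3% lower. The 4 cytosolic mRNAs called lower in LNCaP and the 2 in C4-2B were thus near or under the share of all genes. The median log2 change of the cytosolic members was 0.50 in LNCaP and 0.46 in C4-2B, that of the mitochondrial members was -0.31 in LNCaP and -0.24 in C4-2B, and that of all genes was -0.04 in LNCaP and -0.01 in C4-2B. The count of 0 mitochondrial mRNAs higher was also 0 by DESeq2 and limma voom in both lines, and 1 mRNA in LNCaP and 0 in C4-2B were higher at an unadjusted p under 0.05. Without the libraries with a length trend, 2 cytosolic and 5 mitochondrial mRNAs were called lower in LNCaP, and 0 cytosolic and 3 mitochondrial mRNAs in C4-2B. Leaving out LNCaP siCTRL TG replicate 4 alone gave 5 mitochondrial mRNAs lower in LNCaP, and leaving out siCTRL replicate 4 or any siCTRL TG or siMOCOS TG library gave 2 cytosolic ones. Across the 36 members the log2 changes of the lines, which share no libraries, had a Pearson correlation of 0.97 and a Spearman correlation of 0.94, and 33 had the same sign, as a description over genes that are not independent.

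**Figure D1:**
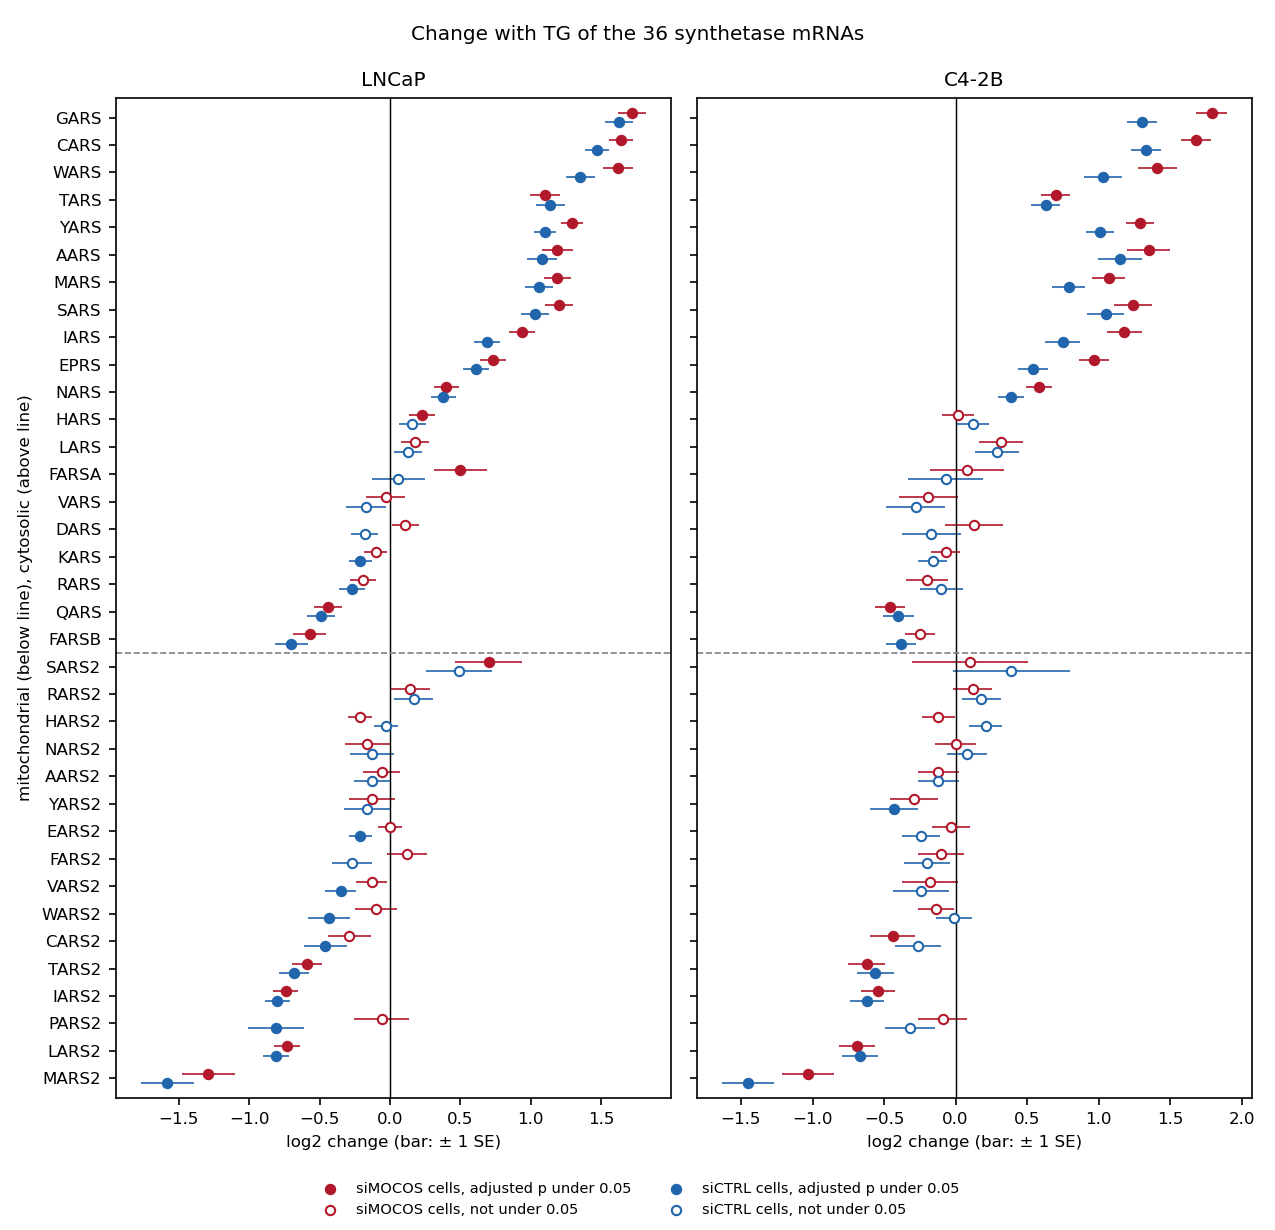
Log2 change with TG of each synthetase mRNA with 1 standard error to either side, in siMOCOS cells (red) and siCTRL cells (blue), for LNCaP on the left and C4-2B on the right. Filled points have an adjusted p under 0.05, and the dashed line divides the 20 cytosolic members from the 16 mitochondrial ones, with the 11 shared rises at the top and MARS2 lowest.

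GARS, the glycine enzyme, rose most in LNCaP. It had 956, 934, 951 and 877 CPM in the 4 LNCaP siCTRL TG libraries, against 308, 287, 270 and 340 CPM in the siCTRL libraries. In C4-2B, GARS had 579, 559, 507 and 544 CPM in siCTRL TG libraries, against 250, 210, 211 and 212 CPM in siCTRL libraries. Every TG library lay above every library without TG in both lines. The fold change of GARS was 3.09 in LNCaP (log2 1.63, SE 0.0992, adjusted p = 7.26e-10) and 2.47 in C4-2B (log2 1.30, SE 0.105, adjusted p = 1.07e-07). The gene lies on the plus strand of chr7:30594681-30634033 in hg38, as are all gene positions given here, and its product charges tRNA in both cytosol and mitochondria.

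CARS, the cysteine enzyme, on the minus strand of chr11:3000922-3057613, was the least abundant cytosolic member per length in LNCaP siCTRL cells. LNCaP siCTRL TG libraries had 131, 139, 135 and 130 CPM of CARS, against 49.5, 52, 47.8 and 43.3 CPM in siCTRL libraries. C4-2B siCTRL TG libraries had 184, 174, 179 and 172 CPM, against 64, 67, 78.4 and 72 CPM in siCTRL libraries. The groups stood well apart in both lines, with a fold change of 2.78 in LNCaP (log2 1.47, SE 0.086, adjusted p = 4.17e-10) and 2.51 in C4-2B (log2 1.33, SE 0.105, adjusted p = 8.32e-08). It was the largest rise of any member in C4-2B.

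WARS, the tryptophan enzyme, on the minus strand of chr14:100333788-100376805, had 438, 457, 439 and 465 CPM in LNCaP siCTRL TG libraries, against 171, 172, 181 and 185 CPM in siCTRL libraries. In C4-2B it had 349, 337, 251 and 352 CPM in siCTRL TG libraries, against 177, 142, 156 and 154 CPM in siCTRL libraries. The groups did not overlap, although siCTRL TG replicate 3 of C4-2B, 1 of the libraries with a length trend, stood well under the others. WARS rose 2.54-fold in LNCaP (log2 1.35, SE 0.103, adjusted p = 9.86e-09) and 2.04-fold in C4-2B (log2 1.03, SE 0.135, adjusted p = 1.42e-05).

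AARS, the alanine enzyme, on the minus strand of chr16:70252295-70289543, reached the highest counts of the 36. It had 2060, 2080, 2230 and 2270 CPM in LNCaP siCTRL TG libraries, against 1100, 1010, 1010 and 966 CPM in siCTRL libraries. C4-2B siCTRL TG libraries had 1400, 1510, 1360 and 1550 CPM, against 787, 577, 607 and 633 CPM in siCTRL libraries. All TG libraries were above all others of their line, with a fold change of 2.12 in LNCaP (log2 1.08, SE 0.108, adjusted p = 2.32e-07) and 2.23 in C4-2B (log2 1.15, SE 0.151, adjusted p = 1.37e-05).

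YARS and SARS, the tyrosine and serine enzymes, rose in both lines. YARS, on the minus strand of chr1:32775237-32818153, had 614, 649, 647 and 547 CPM in LNCaP siCTRL TG libraries, against 296, 293, 288 and 268 CPM in siCTRL libraries. In C4-2B, YARS had 661, 696, 602 and 678 CPM in siCTRL TG libraries, against 358, 303, 320 and 325 CPM in siCTRL libraries. The groups were separate in both lines, with a fold change of 2.15 in LNCaP (SE of log2 0.0771, adjusted p = 3.41e-09) and 2.01 in C4-2B (SE of log2 0.0995, adjusted p = 7.59e-07). SARS had 731, 821, 844 and 769 CPM in LNCaP siCTRL TG libraries, against 393, 428, 427 and 306 CPM in siCTRL libraries. In C4-2B, SARS had 830, 850, 587 and 792 CPM in siCTRL TG libraries, against 386, 305, 377 and 407 CPM in siCTRL libraries. These groups did not overlap either, with a log2 change of 1.03 in LNCaP (SE 0.101, adjusted p = 2.03e-07) and 1.05 in C4-2B (SE 0.13, adjusted p = 7.78e-06). Replicate 3 of C4-2B siCTRL TG was again the lowest TG library.

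The other 5 of the 11 rises were TARS (threonine), MARS (methionine), IARS (isoleucine), EPRS, the fused glutamate and proline enzyme, and NARS (asparagine). Their log2 changes ran from 1.14 for TARS to 0.38 for NARS in LNCaP, and from 0.79 for MARS to 0.39 for NARS in C4-2B. NARS had the largest adjusted p of the 11, 0.00156 in LNCaP and 0.00276 in C4-2B. All 11 kept their call in both lines under every alternative run, each left-out library included, and the C4-2B log2 change of NARS was 0.24 with length and GC trends removed. The 11 covered 5 of the 9 class I cytosolic enzymes and 5 of the 10 class II enzymes in both lines, EPRS holding both catalytic folds. Of the 8 members that sit in the multisynthetase complex, 3 rose in each line, and 3 fell in LNCaP and 1 in C4-2B, with a median log2 change of -0.02 in LNCaP and 0.09 in C4-2B. Of the 12 outside the complex, 8 rose and 1 fell in each line, with a median of 1.06 in LNCaP and 0.82 in C4-2B, and this difference between the groups was not tested. Of all genes, 24.6% were called higher and 25.1% lower in LNCaP, and 21.2% higher and 19.3% lower in C4-2B. The 3 scaffold proteins of the complex, AIMP1, AIMP2 and EEF1E1, had log2 changes of -0.07, 0.14 and 0.00 in LNCaP and of -0.26, 0.07 and 0.05 in C4-2B, all with an adjusted p over the threshold.

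FARSB and QARS were the cytosolic members that fell in both lines. FARSB, the beta subunit of the phenylalanine enzyme, on the minus strand of chr2:222570536-222656337, had 62.4, 66.2, 67 and 64.4 CPM in LNCaP siCTRL TG libraries, against 98.1, 93.9, 98.7 and 132 CPM in siCTRL libraries. In C4-2B it had 69.4, 65.5, 65.6 and 63 CPM in siCTRL TG libraries, against 96.4, 82.3, 84.1 and 80 CPM in siCTRL libraries. The TG libraries were lower throughout, with a log2 change of -0.70 in LNCaP (SE 0.116, adjusted p = 7.97e-05) and -0.38 in C4-2B (SE 0.105, adjusted p = 0.0078). FARSA, which encodes the alpha subunit of the same enzyme, had 60, 74.1, 59.7 and 64.5 CPM in LNCaP siCTRL TG libraries and 56.7, 73.9, 73.8 and 44.2 CPM in siCTRL libraries, which overlapped. QARS, the glutamine enzyme, on the minus strand of chr3:49095932-49105135, had 156, 152, 134 and 138 CPM in LNCaP siCTRL TG libraries, against 197, 191, 205 and 221 CPM in siCTRL libraries. In C4-2B, QARS had 154, 164, 184 and 148 CPM in siCTRL TG libraries, against 194, 226, 220 and 215 CPM in siCTRL libraries. These groups did not overlap, and the log2 change was -0.49 in LNCaP (SE 0.0998, adjusted p = 0.000585) and -0.40 in C4-2B (SE 0.106, adjusted p = 0.00629). The C4-2B call of FARSB was lost without the libraries with a length trend (log2 -0.41, adjusted p = 0.0796) and so was that of QARS (log2 -0.42, adjusted p = 0.0571). These log2 changes were not smaller in size than with all libraries, and fewer libraries were left. Both calls were also lost with a replicate block (adjusted p = 0.0511 for FARSB and 0.0544 for QARS).

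VARS, the valine enzyme, had the next lowest mean change among the cytosolic members and was not called. It had 141, 154, 140 and 158 CPM in LNCaP siCTRL TG libraries and 164, 175, 182 and 150 CPM in siCTRL libraries, and in C4-2B 244, 232, 258 and 269 CPM in siCTRL TG libraries and 260, 326, 323 and 303 CPM in siCTRL libraries. The groups overlapped in both lines (log2 -0.17, adjusted p = 0.315 in LNCaP and log2 -0.28, adjusted p = 0.297 in C4-2B). KARS, the lysine enzyme, and RARS, the arginine enzyme, were called lower in LNCaP by small amounts, at log2 -0.21 (adjusted p = 0.0457) and -0.27 (adjusted p = 0.0232). The KARS call was lost in 19 of 26 alternatives, its log2 change being -0.10 without siCTRL TG replicate 4 (adjusted p = 0.319), and the RARS call in 13 of 26.

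MARS2, the mitochondrial methionine enzyme, on the plus strand of chr2:197705369-197708387, had the largest fall of the 36. LNCaP siCTRL TG libraries had 9.43, 8.01, 9.04 and 8.18 CPM, against 26, 21.9, 27 and 29.1 CPM in siCTRL libraries. C4-2B siCTRL TG libraries had 9.43, 8.28, 8.19 and 8.23 CPM, against 22.8, 23.3, 23.5 and 23.5 CPM in siCTRL libraries. Every TG library was far below every library without TG, and the fold change was 0.334 in LNCaP (log2 -1.58, SE 0.187, adjusted p = 1.83e-06) and 0.365 in C4-2B (log2 -1.45, SE 0.183, adjusted p = 9.33e-06). Its cytosolic counterpart MARS moved the other way, at 315, 338, 281 and 297 CPM in LNCaP siCTRL TG libraries against 136, 143, 157 and 158 CPM in siCTRL libraries (log2 1.06, adjusted p = 1.01e-07). In C4-2B, MARS had 323, 349, 332 and 328 CPM in siCTRL TG libraries against 174, 196, 204 and 197 CPM in siCTRL libraries (log2 0.79, adjusted p = 4.68e-05).

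LARS2 and IARS2, the mitochondrial leucine and isoleucine enzymes, fell in every TG library. LARS2, on the plus strand of chr3:45388506-45549421, had 81.3, 71.2, 79.7 and 68 CPM in LNCaP siCTRL TG libraries, against 138, 131, 128 and 128 CPM in siCTRL libraries. In C4-2B, LARS2 had 79.3, 78.6, 99.4 and 74.7 CPM in siCTRL TG libraries, against 129, 141, 135 and 120 CPM in siCTRL libraries. Its fold change was 0.572 in LNCaP (log2 -0.81, SE 0.0918, adjusted p = 1.18e-06) and 0.629 in C4-2B (log2 -0.67, SE 0.127, adjusted p = 0.000498), with no overlap. IARS2, on the plus strand of chr1:220094102-220148041, had 108, 106, 121 and 113 CPM in LNCaP siCTRL TG libraries, against 210, 177, 190 and 207 CPM in siCTRL libraries. In C4-2B, IARS2 had 117, 125, 116 and 127 CPM in siCTRL TG libraries, against 220, 155, 188 and 180 CPM in siCTRL libraries. The groups were again separate, with a fold change of 0.573 in LNCaP (log2 -0.80, SE 0.0879, adjusted p = 7.17e-07) and 0.653 in C4-2B (log2 -0.62, SE 0.118, adjusted p = 0.000531). LARS, the cytosolic leucine enzyme and a known leucine sensor upstream of mTORC1, was called in neither line with TG (log2 0.13 in LNCaP and 0.29 in C4-2B). TARS2, the mitochondrial threonine enzyme, fell too, by 0.68 on the log2 scale in LNCaP (adjusted p = 4.38e-05) and by 0.56 in C4-2B (adjusted p = 0.00231). Its C4-2B call was lost without the libraries with a length trend, at log2 -0.55 (adjusted p = 0.0595). MARS2, LARS2 and IARS2 kept their calls under every alternative run.

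The other mitochondrial calls were in 1 line each. In LNCaP, PARS2 (proline) had 6.9, 5.7, 5.17 and 5.66 CPM in siCTRL TG libraries, against 8.77, 9.29, 9.42 and 13.8 CPM in siCTRL libraries (log2 -0.81, adjusted p = 0.00233). CARS2 (log2 -0.46), WARS2 (-0.43), VARS2 (-0.35) and EARS2 (-0.21) were also called lower in LNCaP, and YARS2 (-0.43) in C4-2B. Of 26 alternatives, the call of EARS2 was lost in 20 and that of YARS2 in 17, which is most of them. The calls of VARS2, WARS2 and CARS2 were lost in 6, 5 and 4 of 26. Without siCTRL TG replicate 4 the log2 change of WARS2 was -0.23 (adjusted p = 0.113). With length and GC trends removed that of VARS2 was -0.15 (adjusted p = 0.113) and that of EARS2 was -0.11 (adjusted p = 0.3), and without the libraries with a length trend that of WARS2 was -0.26 (adjusted p = 0.13). Among mitochondrial class I enzymes 7 of 9 fell in LNCaP and 4 of 9 in C4-2B, and among class II enzymes 2 of 7 fell in LNCaP and 1 of 7 in C4-2B. Of all genes, 25.1% were called lower in LNCaP and 19.3% in C4-2B, so the class II counts are near or under the background. The class I counts include the calls lost in alternatives, and the difference between the classes was not tested.

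The 3 mitochondrial members with the highest mean change were SARS2, RARS2 and HARS2, the serine, arginine and histidine enzymes, and none was called in siCTRL cells. SARS2 had 11.5, 14.8, 12.5 and 11.2 CPM in LNCaP siCTRL TG libraries, against 9.22, 8.47, 10.3 and 7.67 CPM in siCTRL libraries. In C4-2B, SARS2 had 14.2, 16.1, 9.75 and 17 CPM in siCTRL TG libraries, against 7.02, 9.05, 13.1 and 14.4 CPM in siCTRL libraries. The LNCaP groups did not overlap (log2 0.49, SE 0.234, adjusted p = 0.0898) and the C4-2B groups did (log2 0.39, SE 0.407, adjusted p = 0.466). RARS2 had 25.8, 27, 27.7 and 24.9 CPM in LNCaP siCTRL TG libraries and 25.3, 20.4, 20.3 and 27.6 CPM in siCTRL libraries, and in C4-2B 10.9, 11.8, 11.3 and 10.4 CPM in siCTRL TG libraries and 11, 9.92, 9.01 and 9.14 CPM in siCTRL libraries. Its groups overlapped in both lines (log2 0.17 in LNCaP and 0.18 in C4-2B). HARS2 had 45.4, 48.3, 49.7 and 47 CPM in LNCaP siCTRL TG libraries and 49.3, 47.8, 49.2 and 47.9 CPM in siCTRL libraries, and in C4-2B 39, 39.1, 41.5 and 40.8 CPM in siCTRL TG libraries and 35.2, 30.6, 37.7 and 35.3 CPM in siCTRL libraries. The C4-2B groups were separate but the change was not called (log2 0.21, SE 0.117, adjusted p = 0.168). HARS (chr5:140673904-140691862, minus strand) and HARS2 (chr5:140691426-140699318, plus strand) overlap at their 5′ ends, and whether the counting used strand is not given in the sources used here, so their levels are uncertain.

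**Figure D2:**
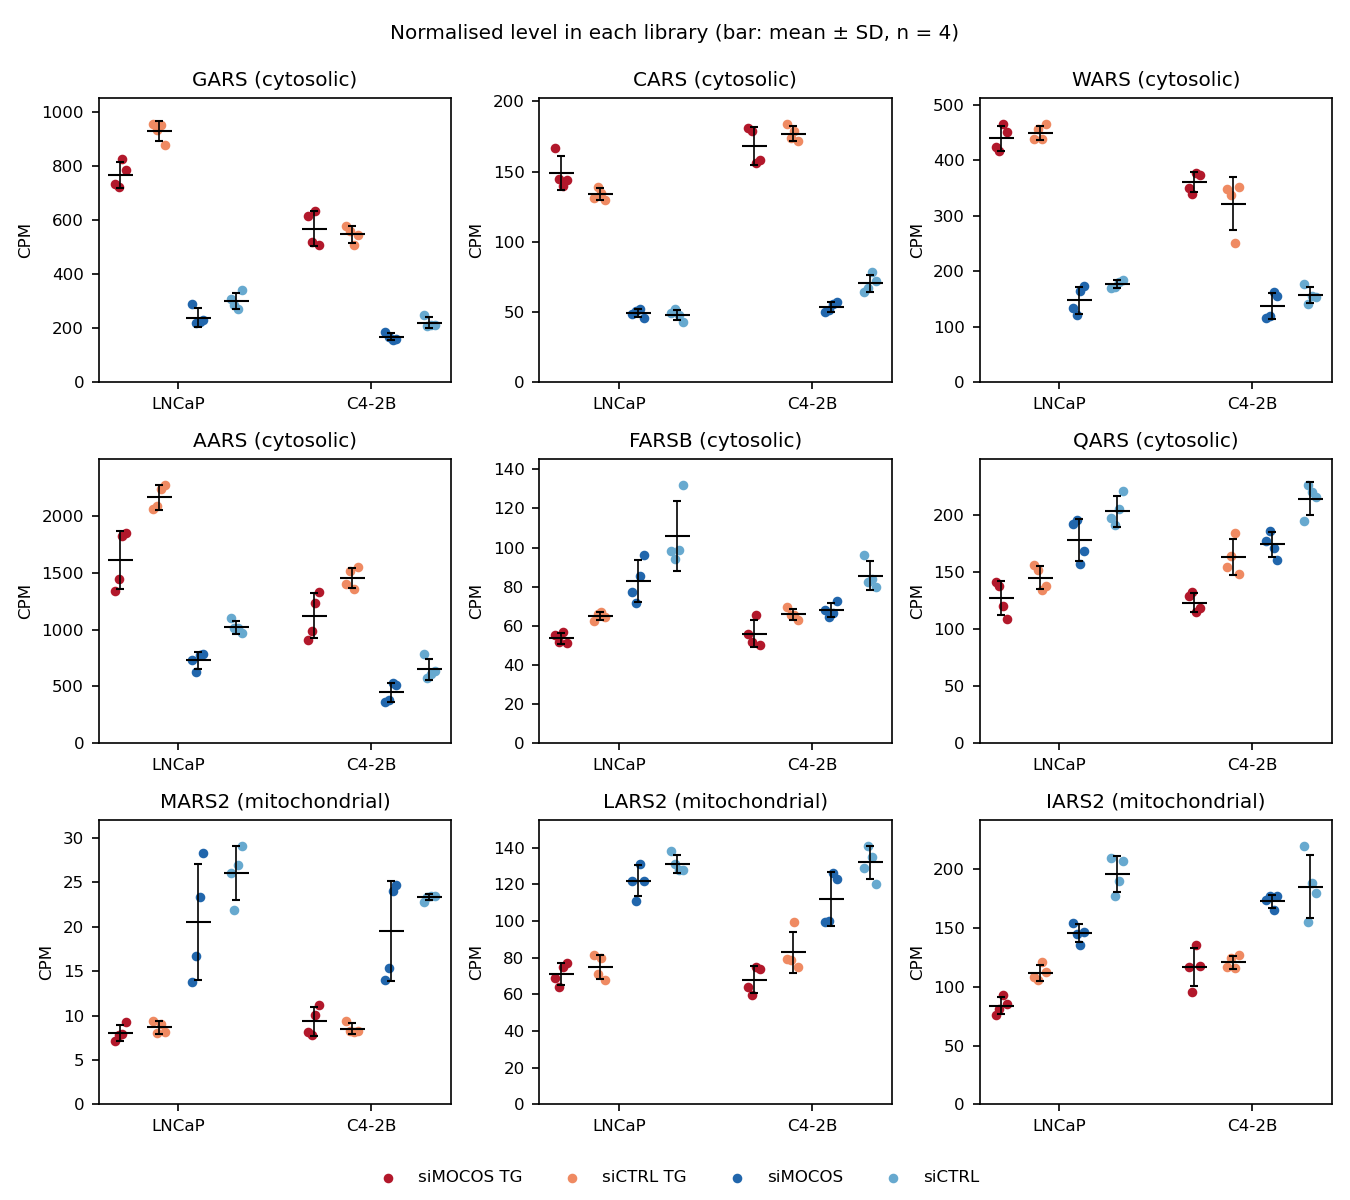
Normalised level (CPM, linear axis from 0) of 9 synthetase mRNAs in each library, with mean and SD of the 4 libraries of a group. Groups run siMOCOS TG, siCTRL TG, siMOCOS and siCTRL within each line, with the TG groups high for GARS, CARS, WARS and AARS and low for FARSB, QARS, MARS2, LARS2 and IARS2.

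For 16 amino acids with a cytosolic and a mitochondrial enzyme on the list, the log2 ratio of the cytosolic to the mitochondrial mRNA was taken within each library, which removes library scaling. In siCTRL cells the ratio was higher with TG for 14 of 16 amino acids in LNCaP and 12 of 16 in C4-2B, with a median shift of 1.06 in LNCaP and 0.91 in C4-2B. Methionine had the largest shift. Its log2 ratio averaged 5.15 ± 0.19 in LNCaP siCTRL TG libraries and 2.52 ± 0.14 in siCTRL libraries, and 5.28 ± 0.13 in C4-2B siCTRL TG libraries and 3.04 ± 0.081 in siCTRL libraries (SD, n = 4 each). The shifts for cysteine were 1.95 in LNCaP and 1.59 in C4-2B, those for threonine 1.82 in LNCaP and 1.18 in C4-2B, and those for tryptophan 1.81 in LNCaP and 1.03 in C4-2B. Arginine was the exception in both lines, with a shift of -0.46 in LNCaP and -0.28 in C4-2B, and phenylalanine was near 0 in both, at -0.02 in LNCaP and 0.00 in C4-2B. By an exact two-sided permutation test of 4 against 4 libraries, 13 amino acids were higher and 1 lower in LNCaP, and 11 higher and 1 lower in C4-2B, each at the smallest p that test allows, 0.0286 unadjusted. EPRS stands in both the glutamate and the proline ratio, so these are not independent. The p of 0.0286 is reached whenever the 2 groups of 4 do not overlap. How often ratios of other gene pairs reach it was not examined. Of all genes, 24.6% were called higher and 25.1% lower with TG in LNCaP, and 21.2% higher and 19.3% lower in C4-2B.

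**Figure D3:**
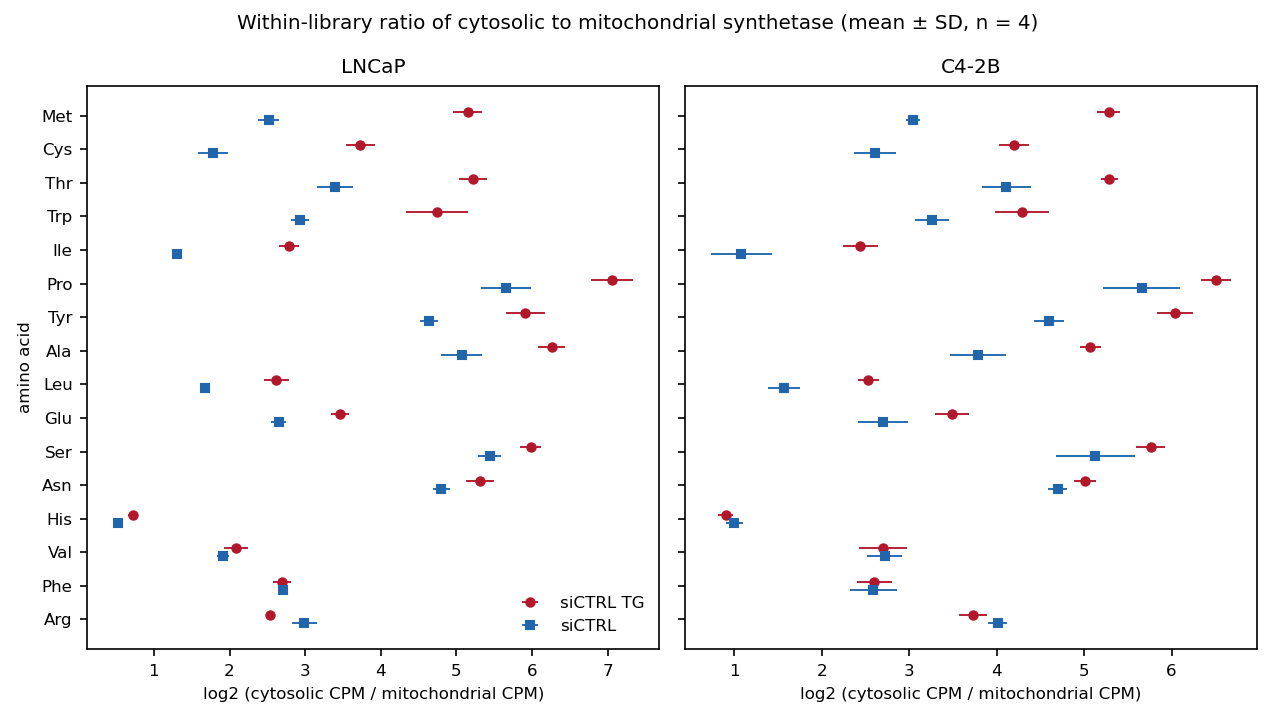
Within-library log2 ratio of cytosolic to mitochondrial synthetase mRNA for 16 amino acids, siCTRL TG (red circles) and siCTRL (blue squares), LNCaP on the left and C4-2B on the right, mean and SD of 4 libraries. Methionine shows the widest gap, and arginine is shifted to the left with TG in both lines.

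In siMOCOS cells the same 11 cytosolic mRNAs rose with TG. They were called higher again in siMOCOS cells of both lines, 13 of 20 being called in LNCaP with FARSA and HARS added and 11 of 20 in C4-2B, against 25.1% of all genes in LNCaP and 20.7% in C4-2B. In LNCaP 2 cytosolic and 4 mitochondrial mRNAs fell, against 21.9% of all genes, which is near their share, and in C4-2B 1 cytosolic and 5 mitochondrial mRNAs fell, against 17.2%. Those lower in both lines were QARS, IARS2, LARS2, MARS2 and TARS2. The median log2 change of the cytosolic members was 0.62 in LNCaP and 0.64 in C4-2B, that of the mitochondrial members -0.13 in each line, and that of all genes -0.01 in LNCaP and -0.02 in C4-2B. GARS had 735, 721, 825 and 787 CPM in LNCaP siMOCOS TG libraries, against 291, 218, 222 and 231 CPM in siMOCOS libraries (log2 1.72, adjusted p = 3.47e-10). In C4-2B, GARS had 616, 518, 632 and 507 CPM in siMOCOS TG libraries, against 187, 168, 157 and 162 CPM in siMOCOS libraries (log2 1.79, adjusted p = 2.34e-09). All siMOCOS TG libraries lay far above the siMOCOS ones. MARS2 had 7.11, 7.83, 7.93 and 9.24 CPM in LNCaP siMOCOS TG libraries, against 13.8, 16.7, 23.3 and 28.3 CPM in siMOCOS libraries (log2 -1.29, adjusted p = 1.86e-05). In C4-2B, MARS2 had 8.2, 7.86, 10.1 and 11.2 CPM in siMOCOS TG libraries, against 14, 15.4, 24 and 24.7 CPM in siMOCOS libraries (log2 -1.03, adjusted p = 0.000249). The siMOCOS libraries without TG spread widely for MARS2, with columns 1 and 2 low and 3 and 4 high in both lines. The split was not confined to MARS2. In C4-2B siMOCOS libraries AARS, MARS, TARS, VARS, WARS, YARS, SARS2 and TARS2 were among those that had it too. There GARS, HARS, KARS, NARS, QARS and RARS were among those that ran the other way. Deviations of columns 1 to 4 had GC correlations of -0.386, -0.255, 0.347 and 0.284 in C4-2B siMOCOS. In LNCaP siMOCOS they were -0.393, 0.0988, 0.312 and -0.00289, and the part of GC content in the split was not tested. The pooled siRNAs could not be tied to these columns, which limits the knockdown comparisons below as well. SARS2 was called higher in LNCaP (log2 0.70, adjusted p = 0.0218), with overlapping groups, and the call was lost in 5 of 24 alternatives, with log2 0.46 without siMOCOS TG replicate 4 (adjusted p = 0.111). No mitochondrial mRNA was called higher in C4-2B by edgeR, DESeq2 or limma voom, and 0 had an unadjusted p under 0.05. The added calls of FARSA and HARS in LNCaP were lost in 12 and 20 of 24 alternatives, that of HARS at log2 0.14 without siMOCOS TG replicate 1 (adjusted p = 0.251).

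Whether knockdown altered the TG response was tested as an interaction. edgeR called 0 of the 36 members in either line, against 0.00724% of all genes in LNCaP and 0.0708% in C4-2B. DESeq2 and limma voom also called 0, and 2 members in LNCaP and 4 in C4-2B had an unadjusted p under 0.05. The smallest adjusted p was 0.577 in LNCaP and 0.298 in C4-2B, where GARS had the largest support, with a TG response 0.48 larger on the log2 scale in siMOCOS cells (SE 0.147). EPRS in C4-2B differed by 0.43 (SE 0.148, adjusted p = 0.406) and CARS by 0.36 (SE 0.146, adjusted p = 0.568). Interaction medians of the cytosolic members were 0.12 in LNCaP and 0.19 in C4-2B, against 0.05 in LNCaP and 0.03 in C4-2B for all genes. A p that misses the threshold does not show that the responses were alike.

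**Figure D4:**
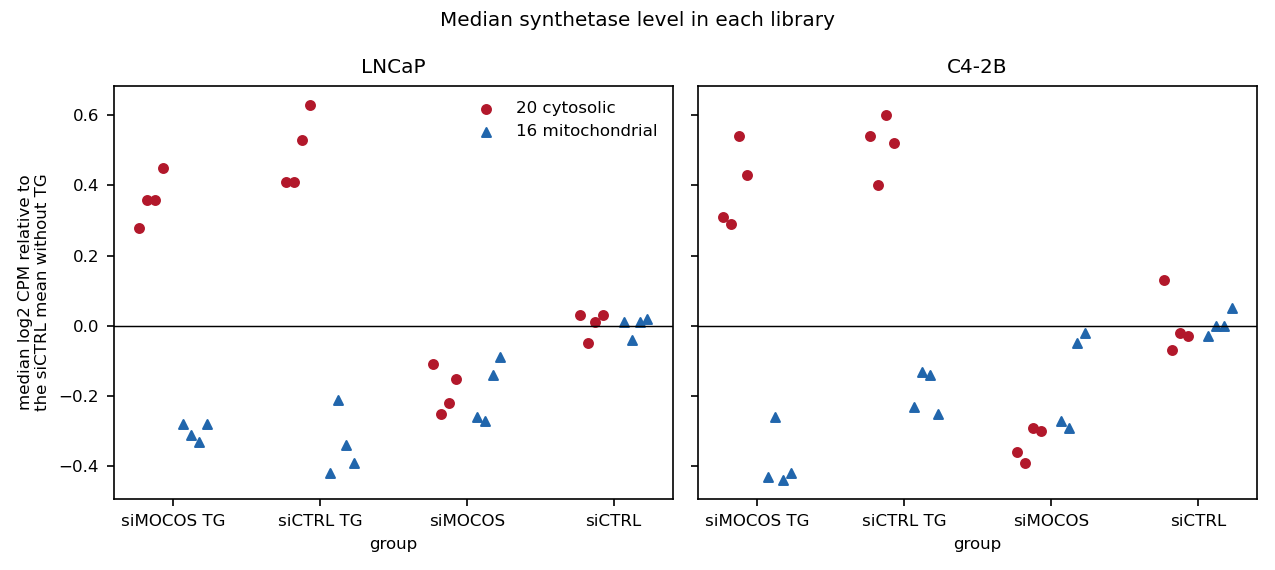
Median log2 CPM of the 20 cytosolic (red circles) and 16 mitochondrial (blue triangles) synthetases in each library, relative to the siCTRL mean without TG of the same line. In both lines the cytosolic medians are above 0 with TG and below 0 in siMOCOS libraries without TG, and the mitochondrial medians are below 0 in all 3 groups other than siCTRL.

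Without TG, many cytosolic synthetase mRNAs were modestly lower in siMOCOS cells. In siMOCOS cells 9 of 20 cytosolic mRNAs were called lower in LNCaP and 10 of 20 in C4-2B, against 9.73% of all genes called lower in LNCaP and 8.14% in C4-2B. Members lower in both lines were AARS, EPRS, FARSB, GARS, IARS, LARS, MARS and YARS. By sign, 18 of 20 cytosolic log2 changes were below 0 in LNCaP and 19 of 20 in C4-2B, with a median of -0.23 in LNCaP and -0.33 in C4-2B, against -0.02 in LNCaP and 0.00 in C4-2B for all genes. edgeR called 0 cytosolic members higher in either line, as did DESeq2 and limma voom, and 0 had an unadjusted p under 0.05, against 6% of all genes called higher in LNCaP and 9.09% in C4-2B. Of the mitochondrial members 1 was called lower in each line, IARS2 in LNCaP and AARS2 in C4-2B (lost in 5 of 24 alternatives), and WARS2 was called higher in C4-2B, shares near those of all genes. In LNCaP edgeR, DESeq2 and limma voom called 0 mitochondrial members higher, and 0 had an unadjusted p under 0.05. The median log2 change of the mitochondrial members was -0.23 in LNCaP, as for the cytosolic members there, and -0.19 in C4-2B. Of the mitochondrial members, 6 in LNCaP and 3 in C4-2B were lower at an unadjusted p under 0.05. With length and GC trends removed, 6 were called lower in LNCaP and 2 in C4-2B, and the share of all genes called in those fits is not given here. Relative to the siCTRL mean, their medians were -0.27, -0.29, -0.05 and -0.02 in C4-2B siMOCOS libraries 1 to 4. In LNCaP siMOCOS libraries they were -0.26, -0.27, -0.14 and -0.09. These comparisons share the siCTRL libraries with the comparison of siCTRL TG against siCTRL. Without the libraries with a length trend, 5 cytosolic mRNAs were called lower in LNCaP and 3 in C4-2B. Leaving out siMOCOS replicate 2 gave 4 in LNCaP and 5 in C4-2B, the lowest counts of any library left out. It was 6 in C4-2B without siCTRL replicate 1 or siMOCOS replicate 1, and 5 in LNCaP without siCTRL replicate 4, siCTRL TG replicate 1, 2 or 3 or siMOCOS replicate 3.

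**Figure D5:**
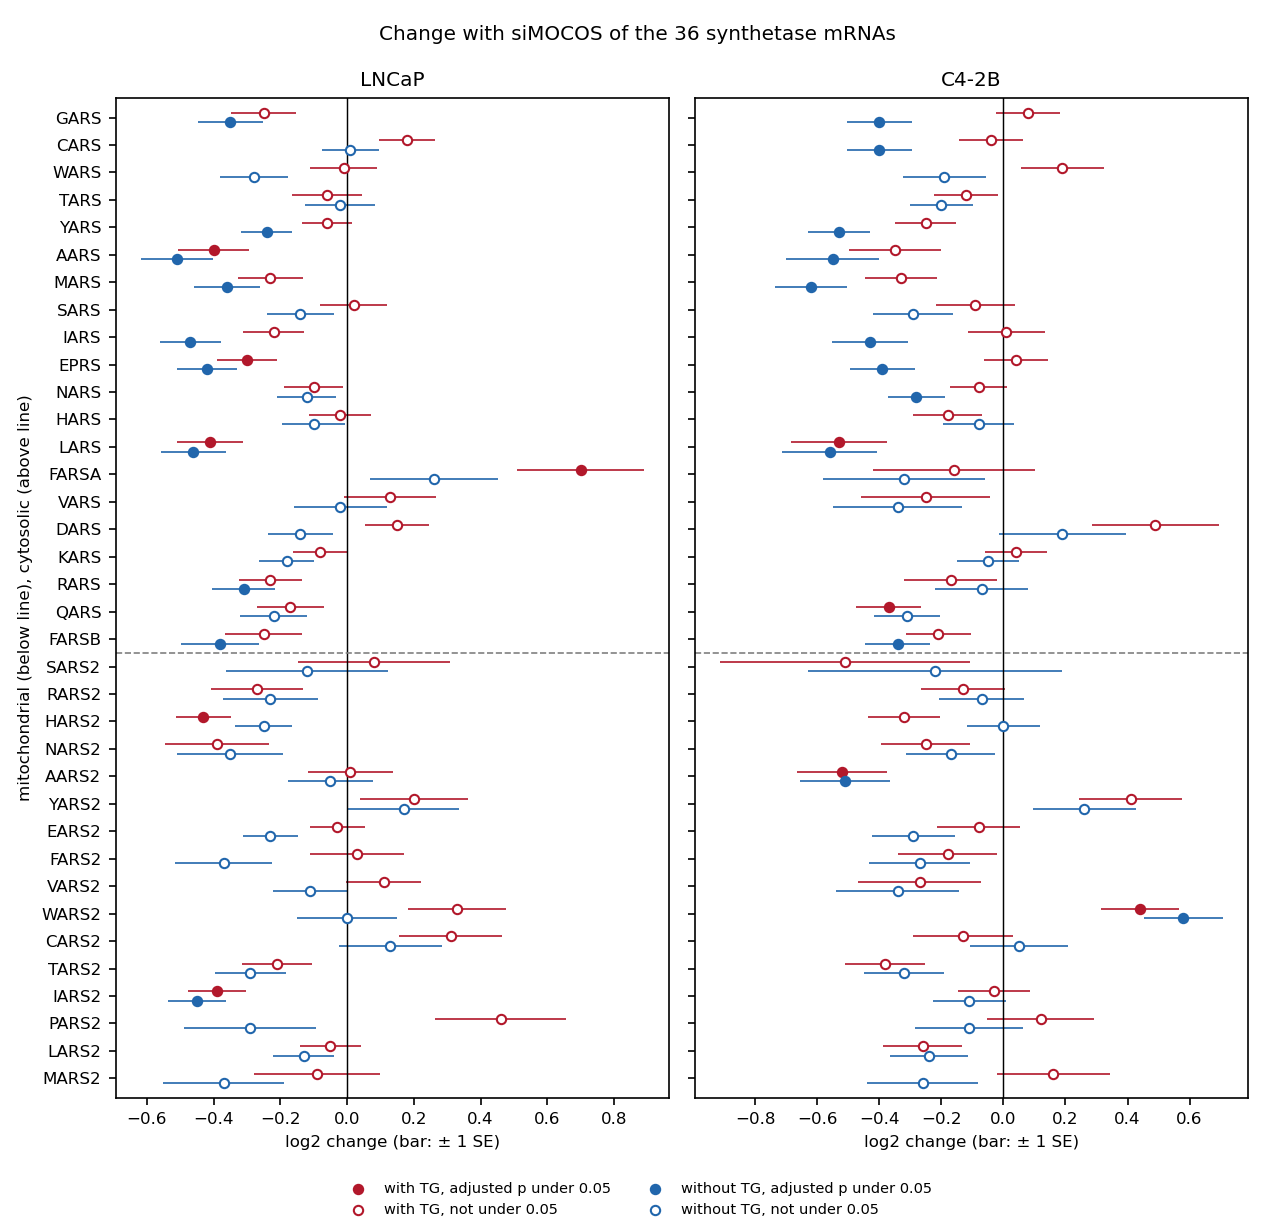
Log2 change with siMOCOS of each synthetase mRNA with 1 standard error to either side, with TG (red) and without TG (blue), for LNCaP on the left and C4-2B on the right. Most cytosolic members above the dashed line lie left of 0 without TG, and WARS2 lies to the right in C4-2B.

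LARS and IARS, the leucine and isoleucine enzymes of the complex, were among the lowest after knockdown. IARS had 361, 329, 350 and 376 CPM in LNCaP siMOCOS libraries, against 510, 458, 469 and 496 CPM in siCTRL libraries. In C4-2B, IARS had 294, 279, 303 and 299 CPM in siMOCOS libraries, against 419, 468, 352 and 329 CPM in siCTRL libraries. The groups did not overlap, with a fold change of 0.722 in LNCaP (log2 -0.47, SE 0.091, adjusted p = 0.00193) and a log2 change of -0.43 in C4-2B (SE 0.123, adjusted p = 0.0231), the C4-2B call being lost in 5 of 24 alternatives. These were without siCTRL replicate 1 (0.0562), siCTRL replicate 2 (0.0785), siMOCOS replicate 1 (0.0563) or siMOCOS replicate 2 (0.0668), and without the libraries with a length trend (0.0738). LARS had 324, 281, 303 and 341 CPM in LNCaP siMOCOS libraries, against 449, 402, 409 and 431 CPM in siCTRL libraries. In C4-2B, LARS had 277, 259, 262 and 278 CPM in siMOCOS libraries, against 409, 481, 356 and 326 CPM in siCTRL libraries. Its groups were separate as well, with a fold change of 0.728 in LNCaP (log2 -0.46, SE 0.0983, adjusted p = 0.00406) and 0.679 in C4-2B (log2 -0.56, SE 0.154, adjusted p = 0.0182). The C4-2B call of LARS was lost without siCTRL replicate 2 (0.0661) or siMOCOS replicate 2 (0.0505), or without the libraries with a length trend (0.0511).

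AARS, MARS and YARS, each raised by TG, were lower after knockdown. AARS had 734, 626, 774 and 782 CPM in LNCaP siMOCOS libraries, against the siCTRL values of 966 to 1100 CPM given above, a fold change of 0.704 (log2 -0.51, SE 0.107, adjusted p = 0.00364). In C4-2B it had 366, 381, 529 and 515 CPM in siMOCOS libraries, against 577 to 787 CPM in siCTRL libraries, a fold change of 0.684 (log2 -0.55, SE 0.15, adjusted p = 0.017). The groups stood apart in both lines, and the C4-2B call was lost without siCTRL replicate 1 (0.0597), siMOCOS replicate 1 (0.0642), siMOCOS replicate 2 (0.0627) or the libraries with a length trend (0.0718). MARS had 104, 111, 122 and 133 CPM in LNCaP siMOCOS libraries, against 136 to 158 CPM in siCTRL libraries (log2 -0.36, SE 0.0979, adjusted p = 0.0194). In C4-2B, MARS had 102, 116, 149 and 139 CPM in siMOCOS libraries, against 174 to 204 CPM in siCTRL libraries, a fold change of 0.652 (log2 -0.62, SE 0.116, adjusted p = 0.00117). No MARS library overlapped the other group, and its C4-2B call held under every alternative run, while the LNCaP call was lost in 4 of 24. YARS had 213, 205, 248 and 243 CPM in C4-2B siMOCOS libraries, against 303 to 358 CPM in siCTRL libraries, a fold change of 0.69 (log2 -0.53, SE 0.0989, adjusted p = 0.00101). In LNCaP, YARS had 261, 239, 249 and 233 CPM in siMOCOS libraries, against 268 to 296 CPM in siCTRL libraries (log2 -0.24, SE 0.0766, adjusted p = 0.0393). The YARS groups did not overlap in either line, but the LNCaP call was lost in 19 of 24 alternatives.

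GARS and CARS, with the largest rises under TG, moved little or modestly after knockdown. GARS was at log2 -0.35 in LNCaP (SE 0.0974, adjusted p = 0.0215), where a siMOCOS library at 291 CPM overlapped the siCTRL range, and at -0.40 in C4-2B (SE 0.104, adjusted p = 0.0124) with separate groups. The LNCaP call was lost in 9 of 24 alternatives, and with length and GC trends removed the LNCaP log2 change was -0.60. The C4-2B call was lost with length and GC trends removed (adjusted p = 0.27) and without the libraries with a length trend (0.0511). CARS had 48.6, 50.9, 52.1 and 46 CPM in LNCaP siMOCOS libraries and 43.3 to 52 CPM in siCTRL libraries, which overlapped (log2 0.01, SE 0.0858, adjusted p = 0.93). In C4-2B, CARS had 50.2, 51.6, 55.6 and 57.3 CPM in siMOCOS libraries, against 64 to 78.4 CPM in siCTRL libraries (log2 -0.40, SE 0.104, adjusted p = 0.0122), a call lost without siCTRL replicate 3 (0.052) and without the libraries with a length trend (0.109). The difference between the lines in that response was 0.43 on the log2 scale (SE 0.122, adjusted p = 0.152), which is not called. FARSB was called lower by knockdown in both lines, a call lost in 17 of 24 alternatives in LNCaP and 8 of 24 in C4-2B, and without LNCaP siCTRL replicate 4 its log2 change there was -0.25 (adjusted p = 0.131), against -0.38 with all libraries.

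IARS2 and WARS2 were the mitochondrial members with the smallest adjusted p after knockdown. IARS2 had 154, 145, 136 and 147 CPM in LNCaP siMOCOS libraries, against 177 to 210 CPM in siCTRL libraries, a fold change of 0.731 (log2 -0.45, SE 0.0877, adjusted p = 0.00193). In C4-2B it had 174, 177, 165 and 177 CPM in siMOCOS libraries and 155 to 220 CPM in siCTRL libraries (log2 -0.11, SE 0.117, adjusted p = 0.584). The groups were apart in LNCaP and overlapped in C4-2B, but the difference between the lines was not called (log2 -0.33, SE 0.143, adjusted p = 0.346). WARS2, the mitochondrial tryptophan enzyme, had 27.7, 23.6, 22.9 and 24.3 CPM in C4-2B siMOCOS libraries, against 18.6, 16.4, 13.4 and 17.2 CPM in siCTRL libraries, a fold change of 1.49 (log2 0.58, SE 0.127, adjusted p = 0.00429). In LNCaP, WARS2 had 24.1, 23, 20.7 and 26.6 CPM in siMOCOS libraries and 22.7, 23.8, 21.1 and 25.4 CPM in siCTRL libraries (adjusted p = 0.989). Its groups were separate in C4-2B and overlapped in LNCaP, and the difference between the lines was -0.57 (SE 0.189, adjusted p = 0.23), which is not called.

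With TG present, fewer members were called after knockdown, although no interaction was called for any of them. Cytosolic mRNAs called lower in siMOCOS TG against siCTRL TG numbered 3 in LNCaP (AARS, EPRS and LARS) and 2 in C4-2B (LARS and QARS), against 10.2% of all genes in LNCaP and 7.6% in C4-2B. In LNCaP FARSA was called higher, and of the mitochondrial members HARS2 and IARS2 were called lower, while in C4-2B AARS2 was lower and WARS2 higher. All genes called higher made up 11.7% in LNCaP and 9.21% in C4-2B, so these counts are near the background. Without the libraries with a length trend 1 cytosolic mRNA was called lower in LNCaP and 0 in C4-2B. Medians of the cytosolic members were -0.09 in LNCaP and -0.14 in C4-2B. edgeR called 0 mitochondrial members higher in LNCaP (2 at an unadjusted p under 0.05) and 0 cytosolic members higher in C4-2B (1 at an unadjusted p under 0.05), and DESeq2 and limma voom called 0 of either. LARS was the 1 member lower in both lines, with 293, 315, 381 and 376 CPM in LNCaP siMOCOS TG libraries, against 453, 420, 480 and 497 CPM in siCTRL TG libraries (log2 -0.41, SE 0.098, adjusted p = 0.00628). In C4-2B, LARS had 308, 265, 404 and 339 CPM in siMOCOS TG libraries, against 430, 421, 629 and 448 CPM in siCTRL TG libraries (log2 -0.53, SE 0.154, adjusted p = 0.0254). The groups did not overlap, and the C4-2B call was lost without siCTRL TG replicate 3 (0.0947), siMOCOS TG replicate 1 (0.0568) or siMOCOS TG replicate 2 (0.0635), or without the libraries with a length trend (0.101). The C4-2B calls of QARS, AARS2 and WARS2 were lost in 5, 4 and 4 of 24 alternatives, and the LNCaP call of EPRS in 3 of 24. HARS2 had 36.5, 36.6, 33.2 and 32.8 CPM in LNCaP siMOCOS TG libraries, against 45.4 to 49.7 CPM in siCTRL TG libraries (log2 -0.43, SE 0.0838, adjusted p = 0.00166). IARS2 had 75.8, 81.6, 93.3 and 85.7 CPM in LNCaP siMOCOS TG libraries, against 106 to 121 CPM in siCTRL TG libraries (log2 -0.39, adjusted p = 0.00459). AARS had 1340, 1440, 1820 and 1850 CPM in LNCaP siMOCOS TG libraries, against 2060 to 2270 CPM in siCTRL TG libraries (log2 -0.40, SE 0.107, adjusted p = 0.0133, and 0.0512 without the libraries with a length trend). In each of these LNCaP comparisons every siMOCOS TG library was below every siCTRL TG one. The FARSA groups overlapped slightly, with 130, 111, 73.8 and 99.2 CPM in LNCaP siMOCOS TG libraries and 59.7 to 74.1 CPM in siCTRL TG libraries (log2 0.70, SE 0.19, adjusted p = 0.0139). That call was lost in 5 of 24 alternatives, at log2 0.30 (adjusted p = 0.0674) with length and GC trends removed.

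Without TG the lines themselves differed in 14 of the 36 members, against 41.2% of the 14628 genes tested in both lines, a share near the background. RARS2, the mitochondrial arginine enzyme, differed most, at 25.3, 20.4, 20.3 and 27.6 CPM in LNCaP siCTRL libraries, against 11, 9.92, 9.01 and 9.14 CPM in C4-2B siCTRL libraries (2.4-fold, log2 1.26, SE 0.134, adjusted p = 7.08e-09). Every LNCaP library was above every C4-2B one. AARS (log2 0.65), GARS (0.45), HARS2 (0.49) and WARS2 (0.50) were also higher in LNCaP, while VARS (-0.85), TARS (-0.71), AARS2 (-0.60) and CARS (-0.55) were lower. The TG responses of the lines differed for 0 of the 36 members by edgeR, against 0.848% of all genes, and for 1 by DESeq2, with 4 at an unadjusted p under 0.05. The smallest adjusted p, 0.1, was that of TARS, whose TG response was 0.51 larger on the log2 scale in LNCaP (SE 0.143). TARS had 1330, 1450, 1530 and 1410 CPM in LNCaP siCTRL TG libraries against 704, 693, 649 and 552 CPM in siCTRL libraries, and 1720, 1590, 1650 and 1610 CPM in C4-2B siCTRL TG libraries against 1210, 1060, 998 and 978 CPM in siCTRL libraries. TARS was thus lower without TG in LNCaP and approached the C4-2B level with it. The siMOCOS responses differed for 0 members by edgeR, against 0.157% of all genes, and for 1 by DESeq2, with 5 at an unadjusted p under 0.05.

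Other genes of the stress response and amino acid synthesis are given beside the shares of all genes, 24.6% called higher with TG in LNCaP and 21.2% in C4-2B, and 9.73% called lower after knockdown in LNCaP and 8.14% in C4-2B. Of 16 regulators of the integrated stress response, 13 rose and 1 fell with TG in LNCaP siCTRL cells and 12 rose in C4-2B, with median log2 changes of 1.91 in LNCaP and 1.41 in C4-2B. TRIB3, an inhibitory pseudokinase of the stress response, rose by 2.71 on the log2 scale in LNCaP (adjusted p = 2.76e-11) and 2.26 in C4-2B (adjusted p = 7.03e-09). CHAC1, which degrades glutathione, rose by 3.06 in LNCaP and 2.79 in C4-2B, and ATF3, a stress-induced transcription factor, by 4.12 in LNCaP and 3.70 in C4-2B. Of 12 amino acid synthesis genes known as ATF4 targets, 8 rose in LNCaP and 7 in C4-2B, among them CTH, which makes cysteine (log2 1.76 in LNCaP and 1.91 in C4-2B), and PSAT1 of serine synthesis (1.32 in LNCaP and 1.24 in C4-2B). After knockdown without TG, 3 of the 16 regulators fell in LNCaP and 6 in C4-2B, and 4 of the 12 synthesis genes fell in LNCaP and 3 in C4-2B. The median log2 changes were -0.22 in LNCaP and -0.46 in C4-2B for the regulators and -0.26 in LNCaP and -0.41 in C4-2B for the synthesis genes. TRIB3 then fell by 0.67 in LNCaP (adjusted p = 0.00193) and by 0.95 in C4-2B (adjusted p = 0.000137).

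Genes that work beside the synthetases in translation are set against 24.6% of all genes called higher and 25.1% lower with TG in LNCaP and 21.2% higher and 19.3% lower in C4-2B. Of 12 genes for mitochondrial transamidation, formylation and translation factors, 1 rose and 6 fell in LNCaP siCTRL cells and 3 fell in C4-2B, with medians of -0.26 in LNCaP and -0.13 in C4-2B. MTFMT, which formylates the methionyl-tRNA that MARS2 makes, fell by 1.04 on the log2 scale in LNCaP (adjusted p = 0.00114) and by 0.92 in C4-2B (adjusted p = 0.00376). TSFM, the exchange factor of the mitochondrial elongation factor TUFM, fell by 0.79 in LNCaP and by 1.01 in C4-2B. Of 7 cytosolic elongation factors, 5 fell in LNCaP and 6 in C4-2B. EEF1A1, which receives the charged tRNAs, was at log2 -0.54 in LNCaP and -0.53 in C4-2B. Of 12 tRNA handling genes, 3 rose and 3 fell in LNCaP and 2 rose and 1 fell in C4-2B, shares near or under those of all genes, as is the C4-2B count of mitochondrial factors that fell. XPOT, the exportin of tRNA, rose by 0.79 in LNCaP and 0.69 in C4-2B, and SEPSECS, which makes selenocysteinyl-tRNA, rose by 0.69 in LNCaP and 1.01 in C4-2B.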

How the data were processed

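RNA-seq libraries of polyadenylated RNA (strand-specific preparation, per the labels' protocols) were deposited as 1 table of estimated counts per gene scaled for transcript length. The submitters' processing notes name the aligner STAR 2.6.1d, the quantifier Salmon 1.5.2, the trimmers cutadapt 3.4 and Trim Galore 0.6.7, the quality check FastQC 0.11.9 and the build hg38. The estimated counts deposited by the authors were not whole (100% of values above 0), so they were rounded. The table gives GENCODE identifiers, and coordinates came from the GENCODE annotation of hg38.

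Each line's 16 libraries were fitted with edgeR 4.0.16 (R 4.3.3; filterByExpr, TMM factors, quasi-likelihood F-test, Benjamini-Hochberg adjustment over all genes, threshold 0.05), and line differences with all 32 libraries. Levels are CPM on TMM factors of the 32 libraries, and CPM per kb divides by the median length of a gene's annotated protein-coding transcripts. Short transcripts enter that median, which was 1479 bases for GARS, 1399.5 for MARS and 1161.5 for RARS. Levels per kb and their ranking are therefore approximate. Standard errors are the log2 change over the square root of F. The edgeR p-values rest on the spread between libraries within groups, estimated over all 16 libraries of a line and not only the 2 groups compared. For line differences it was estimated over all 32. The 4 libraries of a group are called biological replicates in the design text. siMOCOS libraries of the 2 siRNAs were pooled, so the spread of those groups can include differences between the siRNAs. Ratios within a library used estimated counts plus 0.5 and an exact two-sided permutation test (scipy 1.17.1, Python 3.11.15). Alternatives were DESeq2 1.42.0, limma 3.58.1 (voom), RLE factors, other filters, 1 fit of 32 libraries, removal of length and GC trends, a replicate block and leaving out each library. 3 more, chosen after seeing the data, left out libraries with a length trend, fitted siCTRL libraries without a block, and left out each library in the line differences. The fit was tested on simulated data. Counting depth limits precision for MARS2, PARS2 and SARS2.

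Members, lists, motifs and the rule for named genes were chosen with earlier results of these data known. In full stand the 6 cytosolic members with the largest rise and 3 with the largest fall with TG (mean of both lines), the 3 mitochondrial members with the largest fall and 3 with the largest rise, and the 4 with the smallest adjusted p after knockdown in each line. Others were named after their values were seen.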

Additional observations from a re-analysis of the deposited data

Results flagged for a closer look

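Among 152 groups of 4 libraries (19 members in 8 groups), 6 held a library far from its 3 neighbours, and chance alone flags about 1 in 20 groups. GARS had 250 CPM in C4-2B siCTRL replicate 1, above the other siCTRL libraries. WARS had 251 CPM in C4-2B siCTRL TG replicate 3, below the other siCTRL TG libraries, and LARS had 629 CPM in the same library, above the others of its group. That library is 1 of those whose deviations follow transcript length. FARSB had 132 CPM in LNCaP siCTRL replicate 4, above the rest of its group. MARS2 had 9.43 CPM in C4-2B siCTRL TG replicate 1, above libraries that lie very close together. HARS2 had 33.4 CPM in C4-2B siMOCOS replicate 2, below the other siMOCOS libraries.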

How the results depend on the processing

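The 11 cytosolic rises with TG held in all alternatives in both lines, with counts of 11 to 12 in C4-2B siCTRL cells, 11 to 11 in LNCaP siCTRL cells, 11 to 11 in C4-2B siMOCOS cells and 11 to 13 in LNCaP siMOCOS cells when 1 library was left out. No called change reversed. Of the single-gene results under each alternative, 12090 stayed called or stayed not called, 290 lost a call, 113 gained one, and 71 not called moved by over 1 SE. The causes of the changes were not tested. Shares of all genes called are given for the main fits only, so counts under alternatives have no background beside them. Without the libraries with a length trend, TG in siCTRL cells gave 0 cytosolic and 3 mitochondrial mRNAs lower in C4-2B and 2 and 5 in LNCaP. There siMOCOS without TG gave 3 cytosolic and 0 mitochondrial lower in C4-2B and 5 cytosolic lower in LNCaP, and siMOCOS with TG gave 0 cytosolic lower, 0 mitochondrial higher and 0 mitochondrial lower in C4-2B, and 0 cytosolic higher and 1 lower in LNCaP. DESeq2 gave 2 cytosolic lower with TG in C4-2B siMOCOS cells, 4 cytosolic and 3 mitochondrial lower for siMOCOS with TG in C4-2B, 7 cytosolic lower for it in LNCaP, and 1 member in each of the line differences of the TG and siMOCOS responses. limma voom and RLE factors each gave 2 mitochondrial lower for siMOCOS with TG in C4-2B. With length and GC trends removed, TG gave 2 cytosolic lower in C4-2B siMOCOS cells and 1 mitochondrial higher in LNCaP siCTRL cells; siMOCOS without TG gave 2 mitochondrial lower in C4-2B and 6 in LNCaP; siMOCOS with TG gave 2 mitochondrial higher and 3 lower in C4-2B and 5 cytosolic lower in LNCaP. In 1 fit of 32 libraries, TG in siMOCOS cells gave 2 cytosolic lower in C4-2B and 0 mitochondrial higher in LNCaP, siMOCOS without TG gave 2 mitochondrial lower in C4-2B, and siMOCOS with TG gave 1 cytosolic higher, 5 cytosolic lower and 3 mitochondrial lower in C4-2B. With no filter, 0 mitochondrial were higher for siMOCOS with TG in C4-2B, 2 cytosolic were lower with TG in LNCaP siCTRL cells and 5 with siMOCOS without TG. A filter at a mean of 1 CPM gave 2 cytosolic lower with TG in LNCaP siCTRL cells and 5 for siMOCOS with TG. Leaving out 1 library, TG in C4-2B siCTRL cells gave 2 to 2 cytosolic and 4 to 5 mitochondrial lower, and in siMOCOS cells 1 to 2 and 4 to 5. In LNCaP the same gave 2 to 4 and 5 to 9 lower and 0 to 1 mitochondrial higher in siCTRL cells, and 2 to 3 and 4 to 5 lower and 0 to 1 higher in siMOCOS cells. For siMOCOS without TG, C4-2B gave 5 to 11 cytosolic lower, 1 to 1 mitochondrial higher and 0 to 1 lower, and LNCaP 4 to 8 cytosolic and 1 to 4 mitochondrial lower. For siMOCOS with TG, C4-2B gave 0 to 3 cytosolic lower, 0 to 2 mitochondrial higher and 0 to 2 lower, and LNCaP 0 to 1 cytosolic higher, 2 to 5 lower, 0 to 1 mitochondrial higher and 2 to 4 lower. The lines differed without TG in 10 to 16 members, and the interactions and line differences of responses stayed at 0. Same-numbered siCTRL TG and siCTRL libraries did not deviate together (correlations from -0.371 to 0.163 in C4-2B and from -0.0811 to 0.236 in LNCaP). The differently numbered C4-2B siCTRL 2 and siCTRL TG 3 had 0.502, and their deviations followed transcript length at 0.347 and 0.392. Such trends can hide or mimic pairing, so these correlations cannot decide whether the numbers pair the libraries. In a fit of 8 siCTRL libraries with a replicate block, 0 cytosolic mRNAs were lower with TG in C4-2B and 1 mitochondrial mRNA was higher in LNCaP. Without the block those 8 libraries also gave 1 mitochondrial mRNA higher in LNCaP.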
